A study of Mus musculus with 24 samples.

Results

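Genes that take up dietary fatty acids, rebuild them into triglycerides and coat the resulting lipid droplets were followed in C57BL/6N mice on a control or a high-fat diet, with or without metformin. RNA came from the distal small intestine. The 10 genes, out of 55536 in the deposited count table, were chosen by symbol: *Cd36* and *Slc27a4* for uptake, *Fabp1* and *Fabp2* for transport inside the cell, *Acsl5* for activation, *Mogat2*, *Dgat1* and *Dgat2* for triglyceride assembly, and *Plin2* and *Plin3* for the droplet surface. All 10 passed the filter on low counts. In the small intestine, fat digested in the lumen enters the absorptive enterocyte as fatty acids and monoacylglycerol, fatty acids are joined to coenzyme A, and acyltransferases of the endoplasmic reticulum rebuild triglyceride. That triglyceride is either packed into chylomicrons and exported to the lymph or held for a time in cytosolic droplets coated by perilipins. Most dietary fat is absorbed in the proximal part of the small intestine, so several of these genes are known to have a gradient along the gut, whereas the distal part is known for uptake of bile acids.

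The animals formed 4 groups of 6 (3 males and 3 females each), with 1 library per animal: control diet with 10% of energy from fat (CD), the same diet with metformin (CDmetf), high-fat diet with 60% of energy from fat (HFD), and high-fat diet with metformin (HFDmetf). Mice entered at 4 to 5 weeks of age, stayed on their diet for 20 weeks, and a randomly chosen part of the cages then had metformin in the drinking water at 50 mg/kg/day for 10 weeks while the diets went on. All were wild type, were housed 3 to a cage, and 1 animal per cage was sequenced, so each library stands for a separate cage. Libraries are named here by group, labelled sex and the replicate number of the label (for example HFD M2).

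Read counts summed over genes ranged from 1829690 to 40606442 per library (median 3467308), and 3 counts, the level that a count of 0 cannot exclude, corresponded to 0.0705 to 1.71 CPM (reads per 1000000 reads of the library, scaled by TMM normalization), a limit that covers counting error only. In CD M3 the 10 most abundant genes took 85.4% of the gene reads (9.22 to 36.6% in the other libraries). In HFD M2 and HFD F2 the reads of sex-linked genes went against the labelled sex, while 22 of 24 libraries matched their label. Where a member had an unadjusted p under 0.05 in a comparison whose groups hold these 3 libraries, its value without them is given too. All 7 epithelial markers checked were present in every group (summed level 6102 to 14070 CPM, lowest in HFDmetf F2). The 7 distal markers summed to 1445 to 6994 CPM, and the 8 proximal markers to between 71.6 CPM in CDmetf M2 and 4368 CPM in HFD M3. *Fabp6*, the ileal bile acid carrier and a defining distal gene, was at 0.82 CPM in HFD M3 and 1762 CPM in HFD M2. In CD it ran from 32.6 CPM in CD M1 to 2645 CPM in CD M2, so libraries of the same group differed in how distal their RNA looked. In tissue RNA of this kind, fewer cells of a type and less RNA per cell cannot be told apart.

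Per kilobase of exon, the members spanned a wide range of levels. *Fabp2*, the intestinal fatty acid binding protein, had a median over the 24 libraries of 3790 CPM per kb, far above the next gene, *Slc27a4*, at 158 CPM per kb. *Acsl5* (138 CPM per kb), *Dgat1* (109), *Mogat2* (101) and *Fabp1* (91.5) followed, and these neighbours lay within the spread of single libraries. *Plin3* (47.5 CPM per kb) and *Dgat2* (46.0) came next, with *Cd36* (16.4) and *Plin2* (15.2) at the low end. The order was not the same in each group: *Fabp1* had a median of 6.65 CPM per kb in CDmetf, the lowest of all 10 members there, and 422 CPM per kb in HFD, second to *Fabp2*. Its level ran from 0 reads in CDmetf M2 to 1660 CPM in HFD M3, whereas *Plin2* had the narrowest range, from 30.95 to 113 CPM, a ratio of 3.67.

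**Figure D1:**
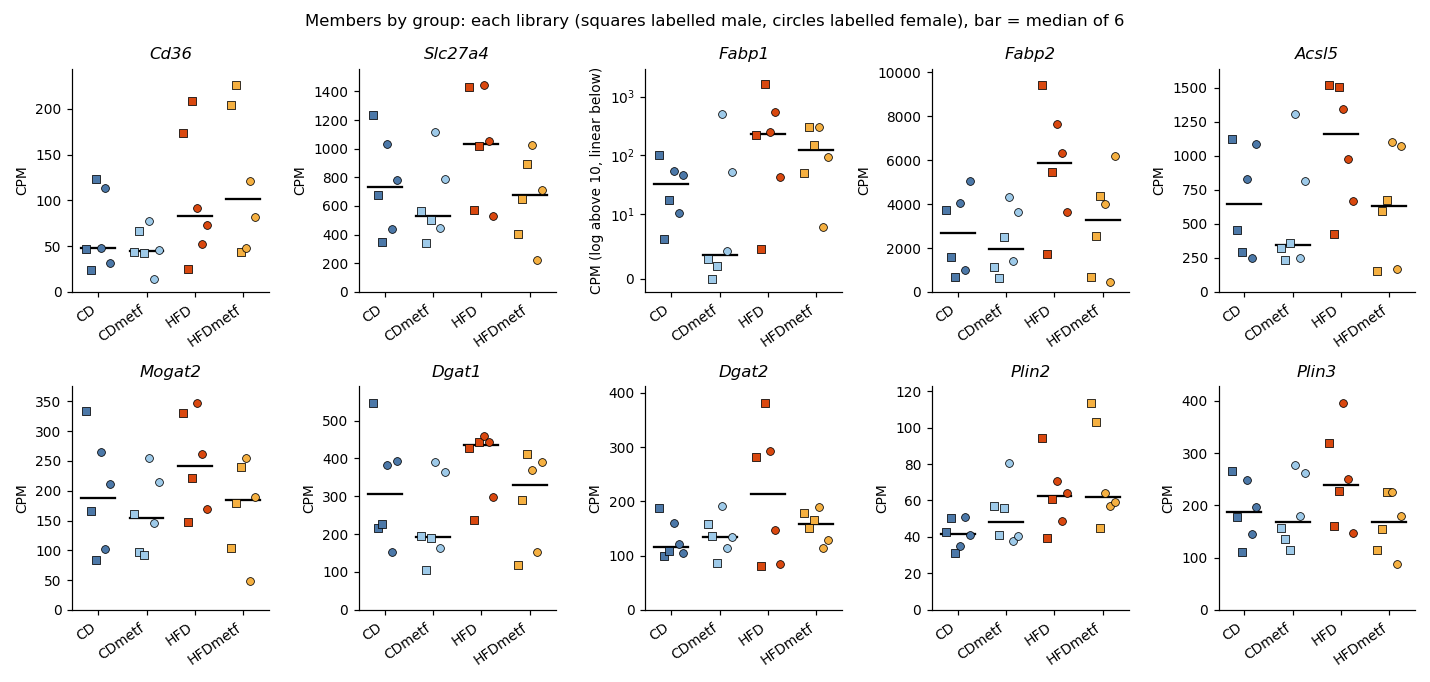
Level of each member (CPM, TMM-scaled) in the 24 libraries by group, one panel per gene, with squares for libraries labelled male, circles for those labelled female and a bar at the group median. The groups overlap for every member. *Fabp1* runs from 0 CPM in CDmetf M2 to 1660 CPM in HFD M3, and *Plin2* stays between 30.95 and 50.95 CPM in CD while 4 of 6 HFD libraries lie above that range.

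Promoter windows of 3 members are given because, of the 7 windows at hand, these 3 held a motif searched. Chosen in this way, they do not stand for the pathway. RefSeq (GRCm38.p6) gave a window for 7 of the 10 members, and none was at hand for *Mogat2*, *Dgat1* and *Dgat2*. Each line is the 250 bases before the RefSeq start, 5′ to 3′ on the strand of the gene, with capitals for a match to 1 of the motifs searched: the nuclear receptor core AGGTCA, 2 such cores in direct repeat 1 base apart (the arrangement known for PPAR receptors), and the TATA box TATAAA. The *Cd36* window lies inside the annotated span of the gene (chr5:17781690-17888801), so its RefSeq start is not the outermost one. The *Fabp1* window reaches past the annotated start of its gene (chr6:71199827). The windows were chr6:71199629-71199878 (plus strand) for *Fabp1*, chr5:17835897-17836146 (minus strand) for *Cd36* and chr4:86670060-86670309 (minus strand) for *Plin2*.
Fabp1: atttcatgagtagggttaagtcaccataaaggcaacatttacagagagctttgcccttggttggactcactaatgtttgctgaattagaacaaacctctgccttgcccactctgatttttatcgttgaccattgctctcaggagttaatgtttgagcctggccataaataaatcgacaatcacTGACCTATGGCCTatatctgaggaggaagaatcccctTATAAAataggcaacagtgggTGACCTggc
Cd36: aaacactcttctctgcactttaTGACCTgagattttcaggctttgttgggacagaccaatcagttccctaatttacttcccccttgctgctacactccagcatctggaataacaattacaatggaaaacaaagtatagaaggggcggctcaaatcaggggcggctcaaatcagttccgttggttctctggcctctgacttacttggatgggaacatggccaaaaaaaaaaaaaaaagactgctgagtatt
Plin2: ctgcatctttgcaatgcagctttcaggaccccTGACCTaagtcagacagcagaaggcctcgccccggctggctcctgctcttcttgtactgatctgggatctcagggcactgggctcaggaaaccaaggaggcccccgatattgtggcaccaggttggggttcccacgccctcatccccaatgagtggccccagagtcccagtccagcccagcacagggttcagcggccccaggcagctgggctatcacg

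Only the *Fabp1* window, among the 7, held the repeat with the fourth base of each core left free (AGGNCANAGGNCA on either strand), at bases 67 to 55 before the start and read there as TGACCTATGGCCT on the printed strand. That pattern occurred in 0.338% of the 32851 windows of the RefSeq table, and the exact repeat AGGTCANAGGTCA in 0.0335% of them and in 0 of the 7. A single core, on either strand, was in 3 of the 7 member windows (*Fabp1*, *Cd36* and *Plin2*), against 14% of all windows. The core counted at 67 to 62 bases before the *Fabp1* start is part of the repeat, and a second one lay 9 to 4 bases before it. A TATA box was found 30 to 25 bases before the *Fabp1* start (12.4% of all windows hold one, on either strand). These are letter matches, looked for after the windows had been seen, and no binding was measured.

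The first comparison was of diet without metformin (HFD vs. CD). All 10 members had a higher fitted level in HFD, with logFC values from 0.33 (*Dgat1*) to 4.17 (*Fabp1*) and a median of 0.58, where all genes tested had a median of -0.005. None passed FDR < 0.05. At an unadjusted p under 0.05, 4 of the 10 were counted, all higher in HFD (*Fabp1*, *Fabp2*, *Dgat2* and *Plin2*), while 4.63% of the 14076 genes tested were counted in either direction. Without HFD M3 the count of members was 2. The share of all genes at an unadjusted p under 0.05 was not counted in this or any later refit, so such counts describe the members only. Of all genes, 0 passed FDR < 0.05 with edgeR's quasi-likelihood test and 652 had p under 0.05. With limma-voom 0 passed, with DESeq2 13, and none of these was a member.

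*Cd36* (chr5:17781690-17888801), a scavenger receptor that binds long-chain fatty acids at the cell surface, was at 24.2 to 123 CPM in CD (median 47.8) and 25.4 to 209 CPM in HFD (median 82.6). HFD M1 and M3 lay above every CD library, and the lowest HFD library was HFD M2. The logFC of 0.60 (SE = 0.517, 95% confidence interval (CI) -0.48 to 1.67, FDR = 0.9997) lay within the spread of the libraries, and was 1.10 without HFD M2 and HFD F2, 0.91 without CD M3 and 0.31 without HFD M3. *Slc27a4* (chr2:29802634-29817522), the fatty acid transport protein of enterocytes, which also has acyl-CoA synthetase activity, ranged from 346 to 1232 CPM in CD (median 731) and from 529 to 1444 CPM in HFD (median 1036). Its logFC was 0.44 (SE = 0.310), a difference that the scatter of either group covered.

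*Fabp1* (chr6:71199827-71205023), the liver-type fatty acid binding protein that the proximal intestine shares with hepatocytes, had the largest logFC and the largest error. CD libraries were at 6.12 to 102 CPM (median 31.9) and HFD libraries at 4.61, 42.1, 217, 250, 535 and 1660 CPM. HFD M1, M3, F1 and F2 were above all CD libraries and HFD M2 was below all of them. The logFC was 4.17 (SE = 1.37, CI 1.33 to 7.00, FDR = 0.9997), with 4 of 6 pairs of the same sex and number higher in HFD. Without HFD M3 it was 2.11 (SE = 1.29), with the unadjusted p above 0.05, without HFD M2 and F2 3.86 (SE = 1.53), and without CD M3 4.02 (SE = 1.50). *Fabp2* (chr3:122895072-122899506), which carries fatty acids in the enterocyte cytosol, was at 672 to 5031 CPM in CD (median 2667) and 1729 to 9421 CPM in HFD (median 5894). In HFD, 4 libraries exceeded every CD library, and the logFC was 1.21 (SE = 0.519, CI 0.13 to 2.28, FDR = 0.9997). It was 1.03 without HFD M2 and F2 and 1.00 without CD M3, in both cases with the unadjusted p above 0.05.

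*Acsl5* (chr19:55251938-55297720), which joins long-chain fatty acids to coenzyme A, had a median of 645 CPM in CD (249 to 1127) and 1161 CPM in HFD (429 to 1521), with 3 HFD libraries above the CD range. Its logFC was 0.73 (SE = 0.438). *Mogat2* (chr7:99219084-99238619) encodes the acyltransferase that starts the monoacylglycerol route of the enterocyte, and *Dgat1* (chr15:76502015-76511953) and *Dgat2* (chr7:99153658-99182719) encode the enzymes of the last acylation step. *Mogat2* (logFC = 0.38, SE = 0.315) and *Dgat1* (logFC = 0.33, SE = 0.296) overlapped almost fully between the diets. *Dgat2*, which lies next to *Mogat2* on chromosome 7, was at 99.2 to 188 CPM in CD (median 115), while HFD libraries split into 3 at 281 to 381 CPM (M1, F1 and M3) and 3 at 80.3 to 147 CPM (M2, F3 and F2). Its logFC of 0.65 (SE = 0.258, CI 0.12 to 1.19, FDR = 0.9997) was 0.30 without HFD M3 (SE = 0.205, unadjusted p above 0.05), 0.91 without HFD M2 and F2 (SE = 0.264, FDR = 0.764) and 0.61 without CD M3 (SE = 0.281).

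*Plin2* (chr4:86648386-86670060), the perilipin that coats cytosolic droplets in most cells, had the least spread of the 10 members in CD. CD libraries were at 30.95, 35.2, 41.03, 42.7, 50.5 and 50.95 CPM and HFD libraries at 39.5, 48.8, 60.9, 64.3, 70.7 and 94.4 CPM. In HFD, 4 libraries were above all CD libraries and none was below them. The logFC was 0.57 (SE = 0.214, CI 0.12 to 1.01, FDR = 0.9997), 0.80 without HFD M2 and F2 (SE = 0.223) and 0.51 without CD M3 (SE = 0.224). *Plin3* (chr17:56277476-56292873), a perilipin that moves from the cytosol onto new droplets, was at 110 to 265 CPM in CD and 147 to 396 CPM in HFD, and its logFC was 0.37 (SE = 0.242).

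**Figure D2:**
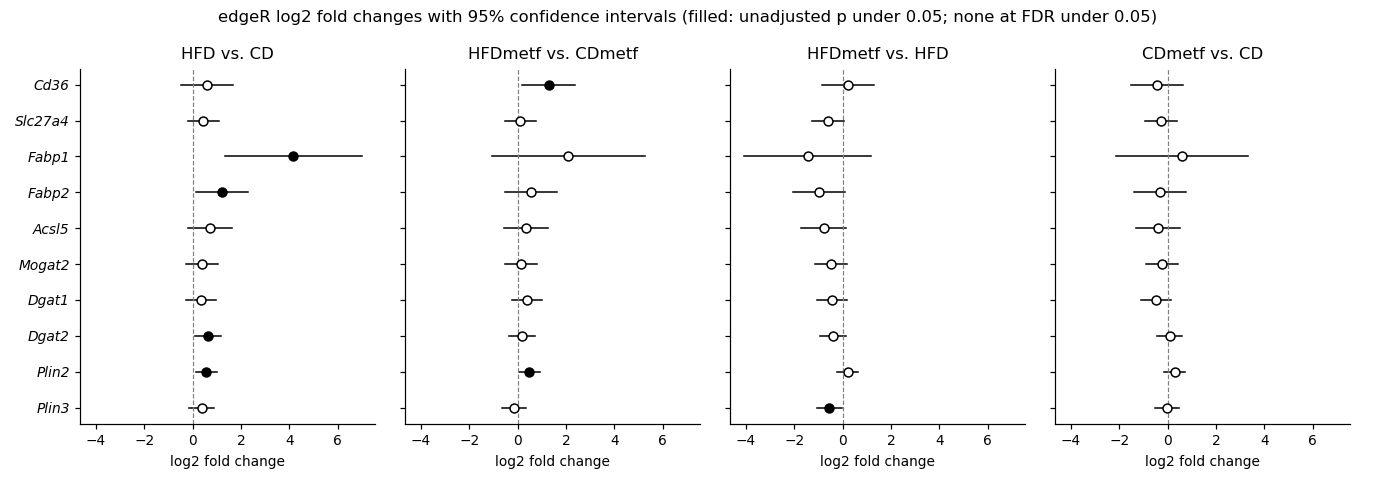
Fitted log2 fold change of each member in the 4 comparisons, with 95% confidence intervals, filled where the unadjusted p is under 0.05. In HFD vs. CD all 10 points lie above 0 (*Fabp1* at 4.17), in HFDmetf vs. HFD 8 of 10 lie below 0, and none of the values passed FDR < 0.05.

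The same diet contrast was then made in animals given metformin (HFDmetf vs. CDmetf). *Cd36* and *Plin2* were the 2 members with an unadjusted p under 0.05 (7.87% of all genes tested were counted), both higher in HFDmetf, and 0 members passed FDR < 0.05. In all, 9 of 10 members had positive logFC values (median 0.37, all genes 0.03), and *Plin3* was at -0.15 (SE = 0.244). *Cd36* was at 14.2 to 77.1 CPM in CDmetf (median 44.8) and 43.4 to 226 CPM in HFDmetf (median 102), with 4 HFDmetf libraries above all CDmetf libraries (logFC = 1.28, SE = 0.522, CI 0.20 to 2.37, FDR = 0.599). *Plin2* was at 37.9 to 80.7 CPM in CDmetf (median 48.4) and 44.7 to 114 CPM in HFDmetf (median 61.7), with a logFC of 0.49 (SE = 0.212, CI 0.05 to 0.93, FDR = 0.610). Leaving out HFDmetf M2, the highest *Cd36* library, gave 0 members with p under 0.05 (*Cd36* logFC 1.03, SE = 0.518), and so did leaving out CDmetf F2. In the other direction, the count was 3 without CDmetf F1 and 4 with limma-voom and sample quality weights. The share of all genes at that p was not counted in these refits.

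In CDmetf, 5 libraries had *Fabp1* at 0 to 52.2 CPM and F1 had 499.5 CPM, while HFDmetf ran from 7.96 to 300 CPM (logFC = 2.11, SE = 1.53). CDmetf F1 was the highest CDmetf library for all 10 members. The *Fabp1* logFC was 4.11 without CDmetf F1, 1.25 without HFDmetf M2 and 0.94 without the replicate block. It was 3.63 with limma-voom and sample quality weights, and its lowest FDR under any other setting was 0.0815. *Fabp2* (0.55), *Dgat1* (0.39), *Acsl5* (0.35), *Dgat2* (0.18), *Mogat2* (0.13) and *Slc27a4* (0.12) had logFC values in this comparison that did not exceed 1.4 times their standard error.

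Averaged over both metformin states, which uses each of the 24 libraries once, the diet contrast had the smallest errors. All 10 members were positive (logFC 0.11 for *Plin3* to 3.14 for *Fabp1*, median 0.47, all genes 0.009). An unadjusted p under 0.05 was seen for 5 members, where 5.96% of all genes tested had one, and 0 passed FDR < 0.05. *Plin2* had the smallest p (logFC = 0.53, SE = 0.150, CI 0.22 to 0.84, FDR = 0.395), with 8 of 12 pairs higher on the high-fat diet. *Fabp1* (logFC = 3.14, SE = 1.05, FDR = 0.564) was higher in 9 of 12 pairs and *Cd36* (logFC = 0.94, SE = 0.363, FDR = 0.681) in 10 of 12. *Fabp2* (logFC = 0.88, FDR = 0.761) and *Dgat2* (logFC = 0.41, FDR = 0.794) were the other two. The count was 3 without HFDmetf M2, 7 without HFDmetf M1 and 4 without CD M3 or without HFD M2 and F2, refits in which the share of all genes was not counted. *Fabp2* was at 0.78 without HFD M2 and F2 and 0.72 without HFDmetf M2, and *Dgat2* at 0.39 without CD M3 and 0.24 without HFD M3, each with the unadjusted p above 0.05, while *Fabp2* was at 0.76 without CD M3 and *Dgat2* at 0.54 without HFD M2 and F2.

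The call on *Fabp1* and *Plin2* depended on the tool. With limma-voom and sample quality weights 195 genes passed FDR < 0.05, among them *Fabp1* (logFC = 3.13, FDR = 0.0342) and *Plin2* (logFC = 0.55, FDR = 0.0467). With DESeq2 48 genes passed, *Fabp1* included (logFC = 3.39, FDR = 0.0358) and *Plin2* not (FDR = 0.119). With limma-voom alone 2 genes passed, no member among them. Without the replicate block, 3 members rather than 5 had p under 0.05, and the *Fabp1* logFC was 2.25 (SE = 0.948). Without HFD M2 and F2, the averaged logFC was 0.63 for *Plin2*, 1.14 for *Cd36* and 2.84 for *Fabp1*, and without CD M3 it was 0.50, 1.09 and 3.01.

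Metformin on the high-fat diet (HFDmetf vs. HFD) went with lower values of 8 members and higher values of *Cd36* (logFC = 0.24, SE = 0.520) and *Plin2* (logFC = 0.21, SE = 0.212), which were at -0.33 and -0.04 without HFD M2 and F2. The median logFC was -0.52 (all genes 0.03). Only *Plin3* had an unadjusted p under 0.05 (logFC = -0.55, SE = 0.245, CI -1.06 to -0.04, FDR = 0.640), where 6.61% of all genes tested did, and 0 of the members or of all genes passed FDR < 0.05. *Plin3* ranged from 147 to 396 CPM in HFD and from 87.0 to 226 CPM in HFDmetf, and 1 of 6 pairs was higher with metformin. Its logFC was -0.56 without HFD M2 and F2 (SE = 0.301, unadjusted p above 0.05) and -0.58 without CD M3 (SE = 0.238). *Fabp2* (logFC = -0.98, SE = 0.527), *Acsl5* (logFC = -0.79, SE = 0.440), *Slc27a4* (logFC = -0.60, SE = 0.313), *Mogat2* (logFC = -0.49), *Dgat1* (logFC = -0.43), *Dgat2* (logFC = -0.39) and *Fabp1* (logFC = -1.45) did not reach it, and the *Fabp1* value was 0.60 without HFD M3 and -3.31 without HFDmetf M2. HFDmetf F2, with the lowest epithelial sum of all libraries, was the lowest HFDmetf library for 6 members. The count of members with p under 0.05 hung on single animals, and the share of all genes in these refits was not counted. It was 6 without HFDmetf M2, 5 without HFD F3, 3 without CD M3 or HFDmetf M3 and 2 without HFD M2. It was 0 without any 1 of HFD M1, M3, F1 and F2 and HFDmetf M1, F1 and F2.

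On the control diet (CDmetf vs. CD), 0 members had an unadjusted p under 0.05 (5.14% of all genes tested), and 7 of 10 had negative logFC values (median -0.26, all genes -0.002). The values ran from -0.49 for *Dgat1* (SE = 0.298) to 0.62 for *Fabp1* (SE = 1.31), and *Plin2* was at 0.29 (SE = 0.213). The *Fabp1* value was -1.86 without CDmetf F1 and -1.18 with limma-voom. In the diet by metformin interaction, 0 members had an unadjusted p under 0.05 (6.03% of all genes tested). Its values ran from -2.06 for *Fabp1* (SE = 1.90, and 0.57 without CDmetf F1 or 0.68 without HFD M3) to 0.69 for *Cd36* (SE = 0.736). The *Cd36* value was 0.02 with the adipocyte marker sum as a term, 0.31 without CD F2, 0.35 without CD M3 and 0.08 without HFD M2 and F2. *Plin3* had the smallest p (logFC = -0.52, SE = 0.344). The 4 comparisons share groups pairwise, so a high or low group moves 2 of them at once.

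Diet effects were also compared between the sexes, in a model with the 8 groups of 3 animals. The female diet effect minus the male one was negative for all 10 members, from -0.25 for *Dgat1* (SE = 0.431) to -4.06 for *Fabp1* (SE = 1.57, CI -7.35 to -0.76, FDR = 1.00). The median was -0.454 for the members and 0.006 for all genes tested. Of the 8 proximal markers, 7 were negative as well (median -1.981). For 3 of these the unadjusted p was under 0.05, and 0 passed FDR < 0.05. *Fabp1* was the only member with p under 0.05, where 2.43% of the 14402 genes tested had one. In libraries labelled male *Fabp1* was at 0, 1.99, 3.12, 6.12, 17.5 and 102 CPM on the control diet and at 4.61, 49.01, 151, 217, 300 and 1660 CPM on the high-fat diet. In those labelled female it was at 4.24, 10.4, 46.3, 52.2, 52.7 and 499.5 CPM on the control diet and at 7.96, 42.1, 93.3, 250, 299 and 535 CPM on the high-fat diet. The 4.61 CPM is from HFD M2, whose sex-linked reads were those of a female, and the 535 CPM is from HFD F2, whose reads were those of a male. The labelled sexes overlapped on both diets, and the males of the control diet included the library with no *Fabp1* read. Leaving out 1 library, CDmetf F1 (-2.81), HFD M3 (-2.29) or HFDmetf M2 (-2.50), brought p above 0.05, and leaving out HFD M2 and F2, whose sex-linked reads go against their labels, gave -6.00 (SE = 1.38, FDR = 1.00). With the sex of these 2 libraries exchanged it was -6.44 (SE = 1.29, FDR = 0.407), and without CD M3 -3.85. With the summed proximal markers as a further term it was -1.46 (SE = 1.18).

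The members fell into a group that varied together and a few that did not. Over the 24 libraries, *Fabp2*, *Slc27a4*, *Mogat2*, *Dgat1*, *Acsl5* and *Plin3* had pairwise Spearman's rho of 0.83 to 0.97 (median 0.91 of 15 pairs of log2 CPM). *Fabp1* joined them with rho of 0.66 to 0.78 and *Dgat2* with 0.49 to 0.67. *Cd36* did not follow these 6 genes (rho -0.11 to 0.11), nor did *Plin2* (0.07 to 0.26), while *Cd36*, *Dgat2* and *Plin2* had rho of 0.45 to 0.59 among themselves. Values of 1 library share its depth, its scaling and its mix of cells, so these are descriptions.

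**Figure D3:**
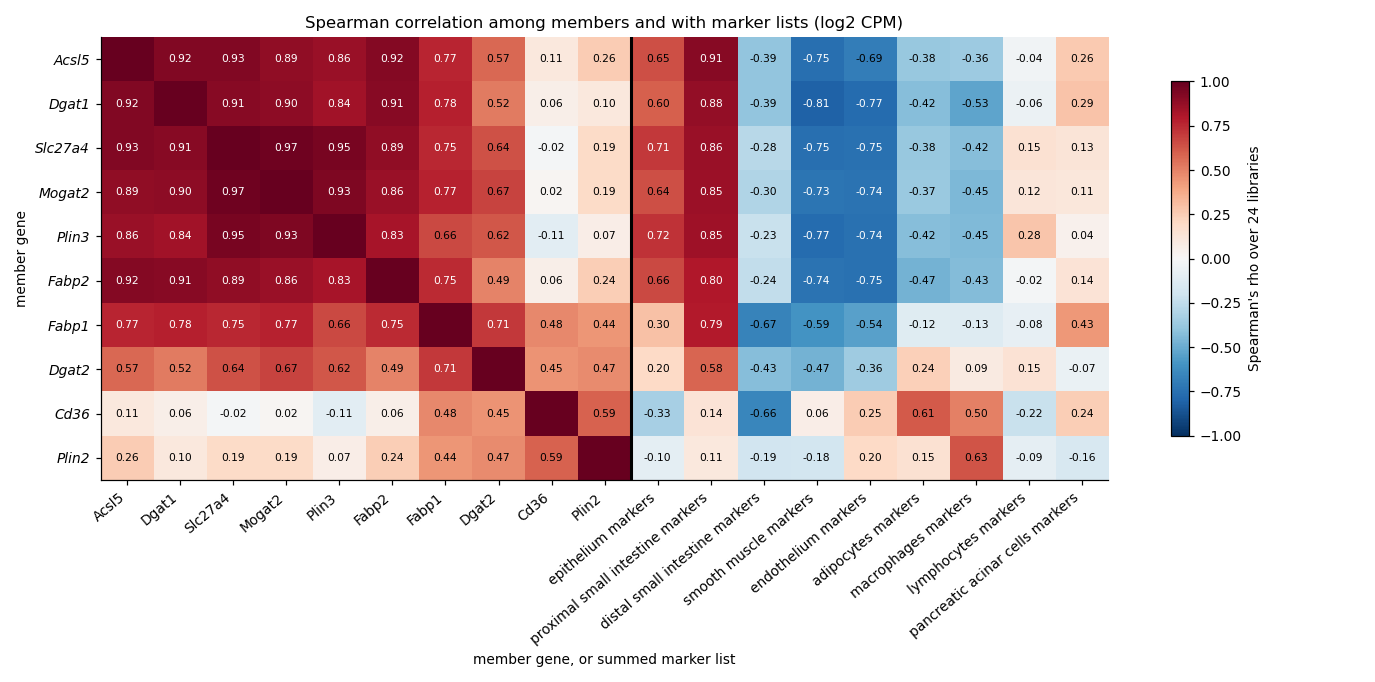
Spearman's rho over 24 libraries between members (left of the line) and between each member and the summed CPM of a marker list (right of the line), red for positive and blue for negative. A block of 6 members, with rho of 0.83 to 0.97, follows the proximal and epithelial markers and opposes smooth muscle and endothelium. *Cd36* and *Plin2* stand outside it.

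The 6 genes and *Fabp1* followed the proximal small intestine markers, *Lct*, *Ada*, *Gata4*, *Cyp3a11*, *Adh6a*, *Onecut2*, *Cybrd1* and *Slc40a1*. Spearman's rho with their summed CPM was 0.91 for *Acsl5*, 0.88 for *Dgat1*, 0.86 for *Slc27a4*, 0.86 for *Mogat2*, 0.85 for *Plin3*, 0.80 for *Fabp2* and 0.79 for *Fabp1* (Pearson's r 0.80 to 0.94). It was 0.59 for *Dgat2*, 0.14 for *Cd36* and 0.11 for *Plin2*. For *Acsl5*, Pearson's r was 0.92 over all libraries, 0.90 without the 2 libraries farthest from the median of the marker sum, and 0.91 for deviations from the group means. The marker sum differed widely inside every group: its median was 1371 CPM in CD (138 to 3925), 159 CPM in CDmetf (71.6 to 3256), 1791 CPM in HFD (647 to 4368) and 1271 CPM in HFDmetf (96.1 to 2664). Of the 8 markers, 7 had positive logFC values in HFD vs. CD (median 0.92), 6 in HFDmetf vs. CDmetf (median 0.23) and 2 in HFDmetf vs. HFD (median -0.94), and 0 passed FDR < 0.05. The same 6 genes also followed the epithelial sum, with rho from 0.60 for *Dgat1* to 0.72 for *Plin3*. The 7 epithelial markers had median logFC values of 0.02 in HFD vs. CD, -0.21 in HFDmetf vs. CDmetf and -0.34 in HFDmetf vs. HFD. With the sum of 4 endothelial markers, rho ran from -0.69 for *Acsl5* to -0.77 for *Dgat1*. The 6 genes ran against the smooth muscle sum too, with rho from -0.73 for *Mogat2* to -0.81 for *Dgat1*. Of the 5 smooth muscle markers tested, 0 had positive logFC values in HFD vs. CD (median -0.32, 2 at an unadjusted p under 0.05), 4 in HFDmetf vs. CDmetf (median 0.045) and 5 in HFDmetf vs. HFD (median 0.44), and 0 passed FDR < 0.05. The part of epithelium, endothelium and smooth muscle in the members' values was not tested.

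**Figure D4:**
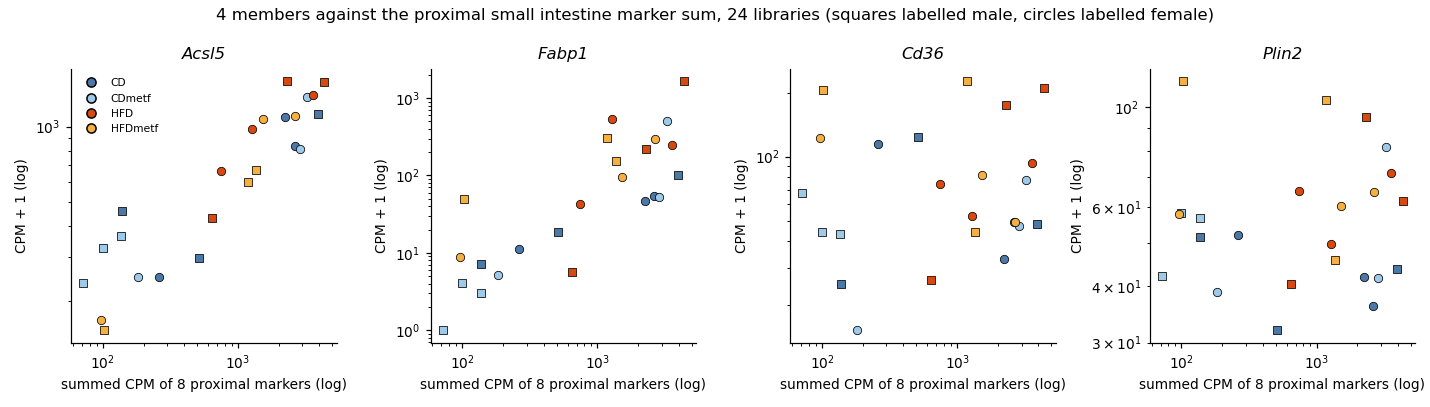
Level of *Acsl5*, *Fabp1*, *Cd36* and *Plin2* (CPM + 1, log axis) against the summed CPM of 8 proximal markers (log axis), 1 point per library, colored by group. *Acsl5* and *Fabp1* climb along the axis (rho 0.91 and 0.79), and *Cd36* and *Plin2* scatter (0.14 and 0.11).

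*Cd36* and *Plin2* had other correlates. *Cd36* had rho of 0.61 with the sum of 8 adipocyte markers, 0.50 with 4 macrophage markers and -0.66 with the distal markers, and *Plin2* had rho of 0.63 with the macrophage markers and 0.15 with the adipocyte markers. *Cd36* is also made by adipocytes, macrophages and endothelium, and *Plin2* by macrophages. The adipocyte sum was 25.5 to 795 CPM in CD (median 154), 33.6 to 621 in CDmetf (93.4), 24.8 to 234 in HFD (107) and 40.3 to 817 in HFDmetf (231). *Adipoq*, which defines adipocytes, was at 0 in at least 1 library of CD, HFD and HFDmetf and reached 73.7 CPM in CD F2. The macrophage sum had medians of 42.8, 59.3, 57.8 and 67.4 CPM in CD, CDmetf, HFD and HFDmetf. The part of these cells in the levels of *Cd36* and *Plin2* was tested only as far as the next fit goes for adipocytes, and was not tested for macrophages.

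With the proximal marker sum as a further term, the averaged diet logFC was 0.02 for *Acsl5*, 0.05 for *Dgat1*, -0.04 for *Slc27a4*, -0.04 for *Mogat2*, -0.11 for *Plin3* and 0.31 for *Fabp2* (0.54, 0.36, 0.28, 0.26, 0.11 and 0.88 without the term). *Plin2* (0.54 against 0.53) and *Cd36* (0.92 against 0.94) kept their size, *Dgat2* was at 0.27 and *Fabp1* at 2.19 with a smaller error (SE = 0.558, FDR = 0.268). With the adipocyte sum as the term instead, *Cd36* was at 0.95 with SE = 0.250 (FDR = 0.276) and *Plin2* at 0.53. In HFDmetf vs. HFD the *Cd36* logFC of 0.24 was -0.16 with the adipocyte term. None of the members passed FDR < 0.05 in either fit. The markers were measured in the same libraries and may respond to diet themselves, and both terms were added after the values had been seen.

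**Figure D5:**
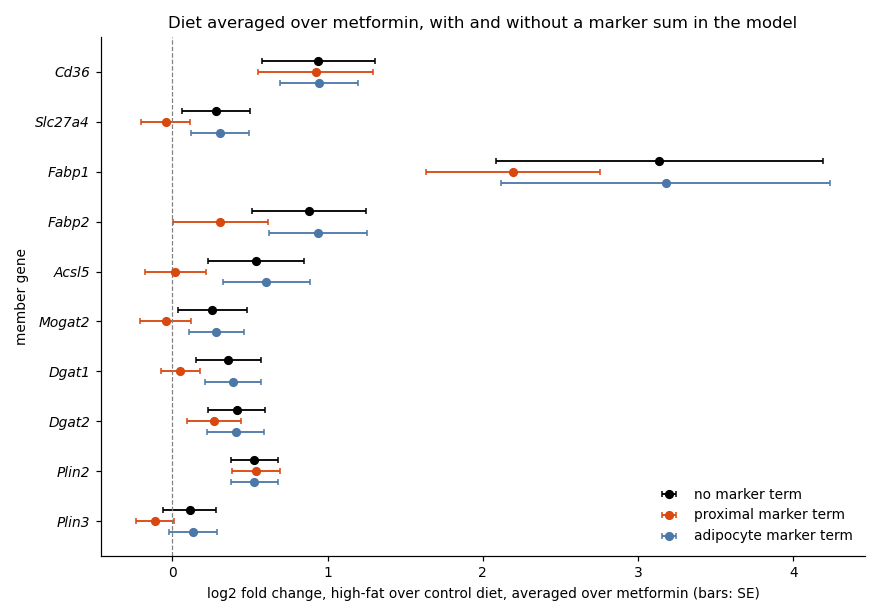
Averaged diet logFC of each member (points, with standard errors) in the fit without a marker term and with the proximal or adipocyte marker sum as a term. *Plin2* and *Cd36* stay at 0.53 to 0.54 and 0.92 to 0.95, while *Acsl5* lies at 0.54 without the proximal term and at 0.02 with it.

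For each member, the 3 genes with the most similar profile were sought among 11168 genes with a mean of at least 5 CPM, by Spearman's rho over the 24 libraries. *Acsl5* was most like *Mttp* (0.97), which loads lipid onto chylomicrons, then *Lpgat1* and *Cdr2*. *Dgat1* was nearest to *1810055G02Rik*, *Soat2*, a cholesterol acyltransferase, and *Cda* (0.95 to 0.96). *Slc27a4* and *Mogat2* had the same 3 nearest genes, *Abr*, *Gpt* and *Pheta1* (0.94 to 0.96). Genes near *Fabp1* included *Gip*, the hormone of proximal K cells (0.92), and *Paqr7* (0.91). *Fabp2* was nearest to *Egln3*, *Cyp2d26* and *Rab8a* (0.92 to 0.93), and *Plin3* to *Slc35e1*, *Slc6a8* and *Sidt2* (0.94 to 0.95).

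*Plin2* had a different circle: *Def8* (0.88), *Acadl*, a mitochondrial long-chain acyl-CoA dehydrogenase (0.86), and *Slc25a20*, the mitochondrial carnitine-acylcarnitine carrier (0.84). *Cd36* had the weakest likeness, to *Hp* (0.78), *Jag1* (0.78) and *Timm9* (0.74), and *Dgat2* was nearest to *Gch1* (0.88), *Miga2* (0.84) and *Atp6v0b* (0.83).

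The wider pathway was counted over a list of 44 other genes of uptake, activation, the glycerol phosphate and monoacylglycerol routes, droplets and lipolysis, of which 38 were tested. None passed FDR < 0.05 in any comparison. In HFD vs. CD 7 of 38 were counted at an unadjusted p under 0.05 (5 positive and 2 negative logFC values, beside 4.63% of all genes), in HFDmetf vs. CDmetf 3 (all positive, beside 7.87%), in HFDmetf vs. HFD 5 (4 positive and 1 negative, beside 6.61%) and in CDmetf vs. CD 1 (beside 5.14%). Positive logFC values were seen for 19 of 38 in HFD vs. CD (median 0.01), 26 of 38 in HFDmetf vs. CDmetf (median 0.11) and 24 of 38 in the averaged contrast (median 0.09). Of all genes tested, 48.8, 55.2 and 52.5% were positive in these 3 contrasts. The averaged diet contrast counted 2 of 38, *Slc27a2* and *Abhd6* (beside 5.96% of all genes), and the interaction 8 (6 positive and 2 negative, beside 6.03%).

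*Slc27a2*, a fatty acid transport protein with very-long-chain acyl-CoA synthetase activity, had the smallest p of the list. It was at 16.8 to 35.3 CPM in CD (median 24.9), 10.2 to 70.9 in CDmetf (20.5), 20.1 to 79.7 in HFD (53.3) and 24.5 to 50.8 in HFDmetf (37.1). Its averaged diet logFC was 0.82 (SE = 0.200, CI 0.41 to 1.24, FDR = 0.290), with 11 of 12 pairs higher on the high-fat diet, 0.98 in HFD vs. CD and 0.66 in HFDmetf vs. CDmetf. Without CDmetf F1 it was 1.00 with FDR = 0.0230, and it passed with DESeq2 (FDR = 0.0348) and weighted limma-voom (FDR = 0.00613). *Abhd6*, a monoacylglycerol lipase, had an averaged logFC of 0.55 (SE = 0.239), and *Agpat2*, an acyltransferase of the glycerol phosphate route, 0.28 (SE = 0.139) and 0.54 in HFD vs. CD (SE = 0.197). *Dbi*, the acyl-CoA binding protein, was at 0.43 in HFD vs. CD (SE = 0.169) and at -0.45 in HFDmetf vs. HFD (SE = 0.169).

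*G0s2*, an inhibitor of triglyceride lipase (logFC = 1.41, SE = 0.514, FDR = 0.599), and *Mgll*, the monoacylglycerol lipase (logFC = 0.77, SE = 0.294, FDR = 0.599), led HFDmetf vs. CDmetf. *G0s2* was low, at 0.55 to 3.61 CPM in CDmetf and 1.25 to 10.3 CPM in HFDmetf, where 3 counts correspond to as much as 1.71 CPM. *Acsl6* (0.99), *Dbi* and *Cav1*, the coat protein of caveolae (0.90), led HFDmetf vs. HFD (FDR = 0.640 for each), with *Acsl6* between 0.41 and 5.02 CPM in these groups. In CDmetf vs. CD, *Acsl3* (0.90, SE = 0.370), the adipocyte perilipin *Plin1* (-2.54, SE = 1.29) and *Lipa* (0.51, SE = 0.283) had the smallest p, and *Plin1*, with no read in 1 CD library, was at 5.70 with limma-voom. *Plin4* (2.71), *Acsl6* (1.32) and *G0s2* (1.89) led the interaction (SE = 0.959, 0.483 and 0.718), and *Lipe* (-0.74, SE = 0.289), *Lipa* (-0.62, SE = 0.408) and *Scarb1* (-0.90, SE = 0.601) the sex difference. *Plin1*, *Fabp4* and *Cidec* of the list are also adipocyte markers here, and in the interaction all 8 adipocyte markers were positive (median 3.43). With the adipocyte marker sum as a term, the interaction was 0.97 for *Plin4* (SE = 0.414) and 1.076 for *G0s2* (SE = 0.468).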

How the data were processed

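RNA from the distal small intestine of 24 animals was sequenced with rRNA-depleted, strand-aware, paired-end libraries. According to the study's methods, reads were trimmed (Trimmomatic 0.39) and aligned to GRCm38 (STAR 2.5.3a), which also did the counting, and the authors deposited raw read counts per gene. Which annotation release was used, and which strand was counted, is not given in the sources used here, so genes that overlap on opposite strands are uncertain. Reads on no gene made up 35.5 to 75.7% of the listed reads (median 45.0%) and were left out. Groups, sexes and replicate numbers came from the sample labels. Symbols were found for 55450 of 55536 gene IDs, gene positions and exon lengths were taken from GENCODE M21, and promoter windows from RefSeq (GRCm38.p6).

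Groups were compared with edgeR 4.0.16 (R 4.3.3) by its two-sided quasi-likelihood test, after filterByExpr (14076 genes kept) and TMM scaling. The model held group, sex and replicate number for the 24 libraries and left 17 residual degrees of freedom. P-values were adjusted by Benjamini-Hochberg over all genes tested (FDR, threshold 0.05). The sex difference used 8 groups and 14402 genes. Confidence intervals are from this fit, and logFC is a log2 difference between fitted groups. The study's methods use sex and block as covariates, which is why the replicate number was a term. Whether the numbers are the blocks is not stated. As a check, deviations of libraries from values fitted on group and sex were correlated between libraries of different groups. The mean was 0.142 over 72 pairs with the same number and -0.07 over 144 pairs with different numbers. Alternatives were limma-voom (limma 3.58.1) with and without sample quality weights, DESeq2 1.42.0, RLE scaling, at least 1 count in any library, at least 10 counts in every library, no replicate block, no sex term, only the groups compared, robust dispersion, and leaving out libraries. After the data had been seen, marker-sum terms and an exchange of the sex of HFD M2 and HFD F2 were added. The scripts were tested on simulated data.

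The 10 members, the marker lists and the pathway list were chosen with earlier results of these data known. The rule for named genes was all members, pathway genes at FDR under 0.05 together with the 3 smallest p per comparison, and the 3 genes of at least 5 CPM most like each member. One gene that this rule would name is not reported here.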

Additional observations from a re-analysis of the deposited data

Results flagged for a closer look

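Within 40 sets of 6 libraries (10 genes in 4 groups), 2 held a library that stood apart from the other 5 by Dixon's gap test (5% of the sets). Both were for *Fabp1*. The sets share libraries and hold CPM without a log scale. The share that chance gives was not worked out for them, so neither is read as beyond chance. In CDmetf, F1 had 499.5 CPM and the next library 52.2 CPM. In HFD, M3 had 1660 CPM and the next library 535 CPM. CDmetf F1 and HFD M3 also had the highest proximal marker sum of their groups, 3256 and 4368 CPM, and the lowest distal marker sum of their groups, 1899 and 1608 CPM. Whether the place of sampling along the intestine set these values was not tested.

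For *Dgat2* in HFDmetf vs. CDmetf, every male pair of the same number was higher in HFDmetf (mean log2 ratio 0.414) and every female pair was lower (mean -0.022). This difference between the sexes was not tested for that comparison. In males the pairs were at 178.2 against 158.4 CPM, 150 against 136.5 CPM and, in the pair with the widest gap (M3), 166 against 86.18 CPM. The female values were nearly equal in each pair, at 190.3 against 191.5 CPM, 113.2 against 113.6 CPM and 128.5 against 133.3 CPM.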

How the results depend on the processing

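Of the 69 fold changes given, 55 kept their sign under all 15 other settings and with each of the 24 libraries left out in turn for which they had a value. With at least 10 counts in every library, *Fabp1*, *G0s2*, *Acsl6*, *Plin1* and *Scarb1* were filtered out and had none, as was *Acsl6* without the block and with only the groups compared. Other settings gave 969 of 990 values in the same direction, and left-out libraries 1644 of 1656. The cause of the exceptions was not tested.

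The numbers of genes at FDR under 0.05, all 0 in the edgeR fit, moved mainly with the tool. With limma-voom and quality weights they were 10 for HFD vs. CD, 87 for HFDmetf vs. CDmetf, 195 for the averaged diet contrast, 285 for the interaction and 2 for the sex difference. With DESeq2 they were 13, 4 for CDmetf vs. CD, 48, 4 and 2 for HFD vs. CD, metformin on the control diet, averaged diet, interaction and sex difference. Limma-voom alone gave 2 for averaged diet, at least 1 count in any library gave 2 for averaged diet and 1 for the sex difference, and the proximal marker term 3 for averaged diet. With 1 library left out the counts ran from 0 to 1 for HFD vs. CD (1 without CD F1) and from 0 to 6 for averaged diet (6 without CDmetf F1). Without the replicate block the count stayed at 0 in every comparison, and 3 rather than 5 members had p under 0.05 in the averaged diet contrast. The share of all genes at that p was not counted there.

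With the proximal marker term, logFC in HFDmetf vs. CDmetf was -0.185 for *Fabp2*, -0.246 for *Slc27a4*, -0.239 for *Mogat2* and -0.259 for *Acsl5*. In the averaged contrast it was -0.043 for *Slc27a4*, -0.044 for *Mogat2* and -0.113 for *Plin3*, for *Fabp1* in HFDmetf vs. HFD 0.049, and for *Dgat1* in the sex difference 0.545. Limma-voom gave *Mogat2* -0.012 in HFDmetf vs. CDmetf, and in CDmetf vs. CD *Fabp1* -1.179 and *Plin1* 5.695. With quality weights these 2 were -1.548 and 2.763, *Cd36* in HFDmetf vs. HFD -0.004 and the *Fabp1* interaction 0.993. *Fabp1* in CDmetf vs. CD was -1.085 with only the groups compared. With the adipocyte term *Plin1* was 0.275 in CDmetf vs. CD and *Cd36* in HFDmetf vs. HFD -0.156. *Plin1* is itself part of the adipocyte sum, so its value with that term cannot show how its fold change depends on processing. Without HFD M2 and F2, HFDmetf vs. HFD gave -0.326 for *Cd36* and -0.042 for *Plin2*. With single libraries left out, HFDmetf vs. CDmetf ran from -0.045 to 0.285 for *Slc27a4* and from -0.046 to 0.332 for *Mogat2*, HFDmetf vs. HFD from -3.309 to 0.602 for *Fabp1* and from -0.098 to 0.499 for *Cd36*, and *Fabp1* from -1.859 to 1.065 in CDmetf vs. CD and from -3.127 to 0.682 in the interaction.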
